A study of Arabidopsis thaliana with 6 samples.

Results

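The genes described here encode enzymes of jasmonate biosynthesis, the route from α-linolenic acid to the wound and development hormone jasmonate. They were chosen by locus code and enzyme step: the 13-lipoxygenases LOX2, LOX3 and LOX4, the allene oxide synthase AOS, the allene oxide cyclases AOC1 to AOC4 and the 12-oxophytodienoate reductase OPR3. Of these 9 genes 7 had a row among the 20777 loci of the value table. AOC1 (AT3G25760) and AOC2 (AT3G25770) had none and were not analysed here. They are the immediate neighbours of AOC3 on chromosome 3, with 0 annotated genes between AOC1 and AOC2 and 0 between AOC2 and AOC3. Cross-hybridisation of an AOC3 probe with these copies, or between LOX3 and LOX4, was not tested.

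Transcripts were measured on ATH1 oligonucleotide arrays in the vegetative part of Col-0 seedlings at growth stage 1.03, an early phase of rosette leaf growth. The 35S::GRF5 group (3 arrays) came from a line that overexpresses GRF5, a growth-regulating transcription factor, from the 35S promoter, which is active in most plant cells. The WT group (3 arrays) was Col-0 without the transgene, and both were raised in vitro on MS medium at 22 °C under days of 16 h light and nights of 8 h. The design text names a single overexpressing line, so the transgene and any other property of that line cannot be told apart. The 3 samples of a group are labelled biological repeats, and the number of seedlings pooled in each is not stated in them.

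Jasmonate synthesis starts in the chloroplast and ends in the peroxisome. In the chloroplast a 13-lipoxygenase oxygenates α-linolenic acid, allene oxide synthase turns the product into an unstable allene oxide, and allene oxide cyclase closes the ring to give 12-oxophytodienoic acid. In the peroxisome OPR3 reduces that compound, and β-oxidation shortens its side chain to jasmonic acid, which JAR1 joins to isoleucine to form the active hormone. The hormone is perceived by COI1, which marks JAZ repressors for destruction and so frees MYC transcription factors. Many synthesis genes are themselves induced by jasmonate, by wounding and by touch.

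GRF5 (AT3G13960) read 11.34 to 12.08 on the log2 scale in the 35S::GRF5 arrays and 4.26 to 4.75 in the WT arrays, in accord with the labels. Correlations between arrays over all loci were 0.993 to 0.997 within groups and 0.990 to 0.995 between groups, and all loci together had a median difference of 0.02 log2 units. Of the green leaf markers PSAD-1 and RCA were measured, with a mean of 13.79 to 13.82 in 35S::GRF5 and 13.72 to 13.83 in WT. The means of 6 root markers were 4.36 to 4.58 in 35S::GRF5 and 4.37 to 4.48 in WT, and the means of 6 flower organ identity genes were 3.93 to 4.16 in 35S::GRF5 and 3.94 to 4.06 in WT. By the limma test given next, 0 of these 14 leaf, root and flower markers passed and 1, the floral homeotic gene SEP3, had an unadjusted p under 0.05. WT replicate 3 stood apart in touch and rapid stress genes and had the highest value of 11 of the 12 measured (WRKY53 was highest in 35S::GRF5 replicate 1). Their mean was 5.65 to 5.99 in 35S::GRF5, against 5.51 to 5.79 in WT replicates 1 and 2 and 7.37 in WT replicate 3.

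LOX4 was the member that passed the test between the groups, with a level 1.496-fold lower in 35S::GRF5 seedlings. LOX2, the lipoxygenase of the bulk leaf response to wounding, had its 35S::GRF5 arrays below its WT arrays too but did not pass. For LOX3, AOS, AOC3, AOC4 and OPR3 the groups overlapped. Every difference is 35S::GRF5 minus WT in log2 units from a limma fit over all 20777 loci, and p-values were adjusted by the Benjamini-Hochberg method over all of them with a threshold of 0.05. By this rule 1 of 7 members was called, against 0.77% of all loci, and that 1 was lower, against 0.486% of all loci called lower. The 35S::GRF5 arrays all lay below the WT arrays for 2 of 7 members, against 8.45% of all loci, and above them for 0 of 7, against 13.2%. At an unadjusted p under 0.05, 2 of 7 members (LOX2 and LOX4) were lower, against 5.97% of all loci. Differences were negative for 5 of 7 members, against 43.8% of all loci. The median difference of the members was -0.19, against 0.02 over all loci; it was -0.06 without 35S::GRF5 replicate 1 and -0.12 without WT replicate 3. In RNA of whole seedling tops, fewer cells that express a gene and less of its RNA per cell cannot be told apart.

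**Figure D1:**
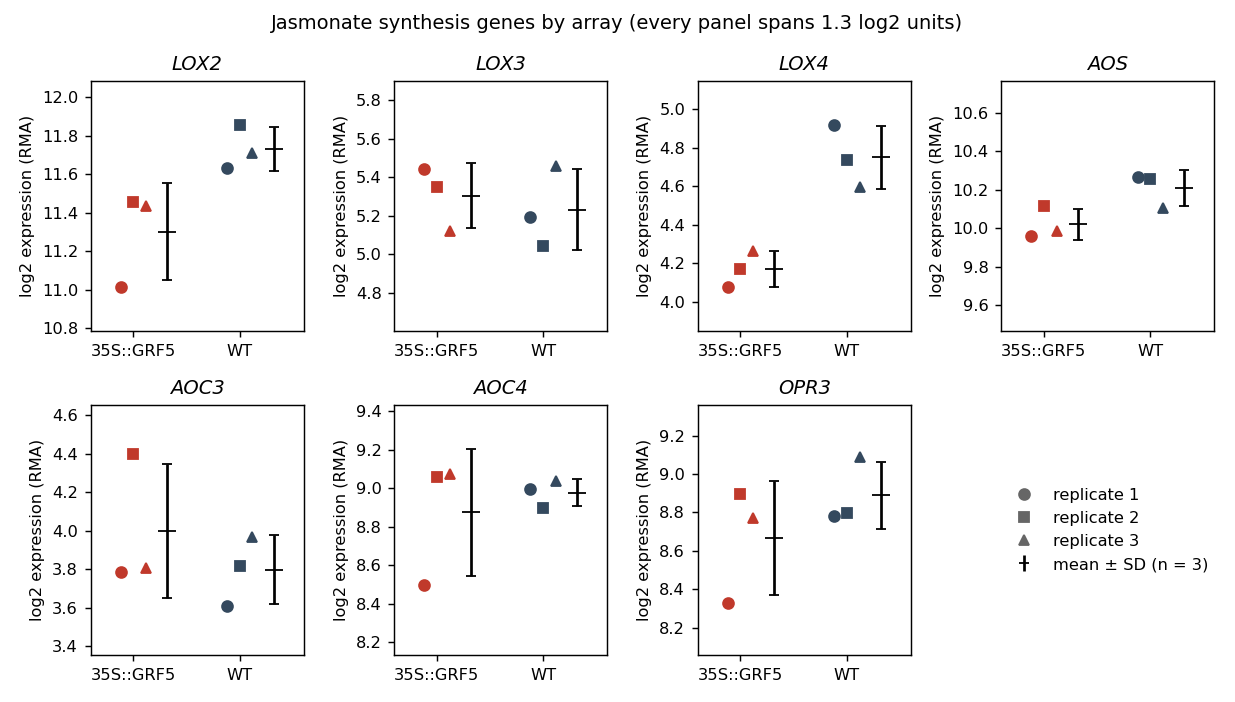
Log2 expression (vertical axis, RMA) of the 7 measured jasmonate synthesis genes in each array of 35S::GRF5 (red, left) and WT (grey, right), with marker shape for the replicate number and the group mean ± SD (n = 3) as bars. For LOX2 and LOX4 the groups do not overlap, and 35S::GRF5 replicate 1 is the lowest of the 6 arrays for LOX2, LOX4, AOS, AOC4 and OPR3.

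The first step of the route, the oxygenation of α-linolenic acid, is taken by the 13-lipoxygenases. LOX4 (AT1G72520), which with LOX3 is needed for male fertility and contributes to jasmonate made in leaves, read 4.08, 4.17 and 4.26 in 35S::GRF5 replicates 1 to 3 and 4.92, 4.74 and 4.60 in WT replicates 1 to 3. The groups did not overlap, and the highest 35S::GRF5 array lay 0.33 log2 units below the lowest WT array. LOX4 averaged 4.17 ± 0.09 in 35S::GRF5 and 4.75 ± 0.16 in WT (SD, n = 3 each). It fell by 0.58 log2 units in 35S::GRF5 (95% interval -0.82 to -0.34, limma adjusted p = 0.044). The level was low, with 26.3% of all loci at a lower mean, and since detection calls were not used here, how much of it is background is unknown. The call was close to the threshold. Whichever array was left out, LOX4 missed the threshold, with limma adjusted p of 0.0755, 0.116 and 0.0821 without 35S::GRF5 replicates 1, 2 and 3 and of 0.194, 0.118 and 0.0661 without WT replicates 1, 2 and 3. The difference itself stayed between -0.66 and -0.50 in these 6 fits, and its 95% interval lay below 0 in each. With all 6 arrays the call also ended with quantile normalization (limma adjusted p = 0.061) and with the replicate number fitted as a block (0.0951). With the variance of each locus taken alone the adjusted p of LOX4 was 0.274. That fit called 0 of all 20777 loci, so this loss says nothing particular to LOX4.

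LOX3 (AT1G17420), the lipoxygenase that shares the fertility role with LOX4, read 5.44, 5.35 and 5.12 in 35S::GRF5 and 5.19, 5.04 and 5.46 in WT. All 3 35S::GRF5 values lay within the range of the WT values. The difference was 0.07 (-0.21 to 0.36, limma adjusted p = 0.83), and without WT replicate 2 it was -0.021. The difference of LOX3 minus LOX4 within an array was greater in 35S::GRF5 than in WT by 0.65 log2 units. That contrast, 1 of the 21 between 2 members, had a two-sided exact permutation p of 0.2 over the arrays (0.394 adjusted over the 21), where 0.1 is the smallest value that 3 against 3 arrays allow. With these group sizes the contrast could not have passed 0.05, so it says nothing for or against a difference in response between the pair.

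LOX2 (AT3G45140), the chloroplast lipoxygenase that supplies most of the jasmonate formed soon after leaf wounding, read 11.01, 11.46 and 11.44 in 35S::GRF5 and 11.63, 11.86 and 11.71 in WT. All 3 35S::GRF5 arrays were below all 3 WT arrays, and 35S::GRF5 replicate 1 was well below the other two of its group. LOX2 averaged 11.30 ± 0.25 in 35S::GRF5 and 11.73 ± 0.11 in WT (SD, n = 3 each). The difference was -0.43 (-0.72 to -0.14), with an unadjusted p of 0.00809 and a limma adjusted p of 0.159. The mean of LOX2 was above that of 98.1% of loci, so its value is far from the low end of the array. Without 35S::GRF5 replicate 1 the difference was -0.29 (-0.51 to -0.06), and with any other single array left out it was -0.37 to -0.51.

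**Figure D2:**
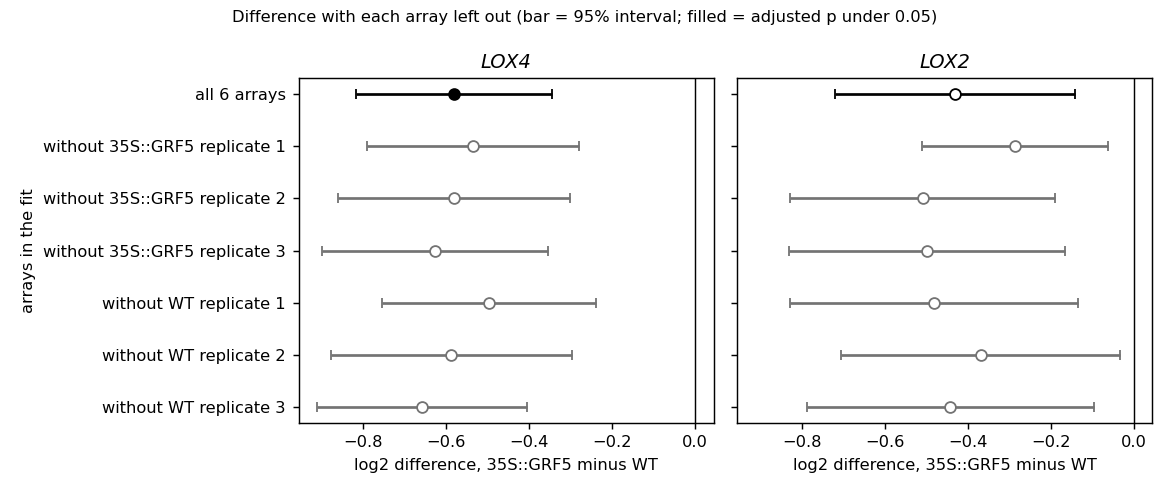
Log2 difference of LOX4 and LOX2, 35S::GRF5 minus WT (horizontal axis), with all 6 arrays and with each array left out in turn; bars are 95% intervals and filled points have a limma adjusted p under 0.05. The intervals lie below 0 in all 7 fits of both genes, and the filled point is LOX4 with all 6 arrays.

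The lipoxygenase product next meets AOS (AT5G42650), a cytochrome P450 encoded by a single gene, which makes the allene oxide. AOS read 9.96, 10.11 and 9.98 in 35S::GRF5 and 10.27, 10.26 and 10.10 in WT. The groups met at 1 point: 35S::GRF5 replicate 2 was just above WT replicate 3. The difference was -0.19 (-0.40 to 0.02), with a limma adjusted p of 0.363.

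The allene oxide cyclases set the stereochemistry of the ring that all jasmonates carry. AOC4 (AT1G13280) read 8.50, 9.06 and 9.07 in 35S::GRF5 and 8.995, 8.90 and 9.04 in WT. A single array, 35S::GRF5 replicate 1, was low, and the other two of the group were the highest of all 6. The difference of -0.10 (-0.43 to 0.23, limma adjusted p = 0.794) was 0.088 without that array. AOC3 (AT3G25780) read 3.79, 4.40 and 3.804 in 35S::GRF5 and 3.61, 3.82 and 3.97 in WT. Here 35S::GRF5 replicate 2 stood above the rest, and the difference of 0.20 (-0.17 to 0.57, limma adjusted p = 0.616) was -0.0010 without it. The mean of AOC3 was above that of 13.7% of loci, so here too the part of background in the value is unknown.

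OPR3 (AT2G06050), the peroxisomal reductase without which pollen is not released and jasmonate is low, read 8.33, 8.90 and 8.77 in 35S::GRF5 and 8.78, 8.80 and 9.09 in WT. Its extremes were 35S::GRF5 replicate 1 at the low end and WT replicate 3 at the high end, and the remaining 4 arrays overlapped. The difference was -0.22 (-0.56 to 0.11, limma adjusted p = 0.523). It was -0.06 without 35S::GRF5 replicate 1 and -0.12 without WT replicate 3. WT replicate 3 is the array with the high touch and rapid stress genes, and it also held the highest value of LOX3, while it was the lowest WT array for LOX4 and AOS. The part of that array's state in the OPR3 and LOX3 values was not tested.

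Across arrays the members did not vary as 1 block. The lowest value of 5 of the 7 genes was in 35S::GRF5 replicate 1, the array that also deviated most from its group mean over all loci (root mean square 0.162, against 0.101 to 0.138 in the other 5 arrays). In that array LOX2 lay 0.51 log2 units below its mean over the 6 arrays, OPR3 0.45, AOC4 0.43 and LOX4 0.38 below theirs, whereas LOX3 lay 0.18 above. The remaining 35S::GRF5 arrays differed in pattern: LOX4 was 0.29 and 0.20 below its mean in replicates 2 and 3, and AOC4 was 0.13 and 0.15 above. WT arrays lay above the mean in all 3 replicates for LOX2, LOX4 and OPR3, though OPR3 was only 0.002 above in WT replicate 1.

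**Figure D3:**
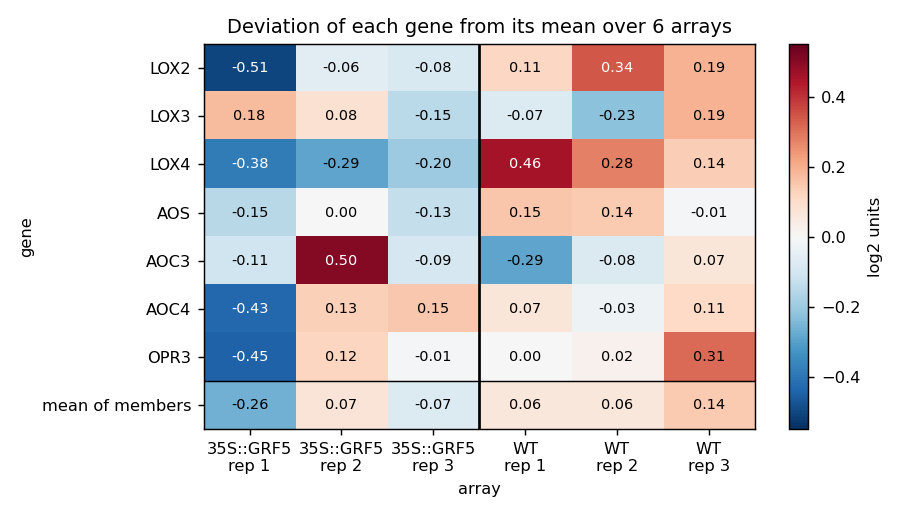
Deviation of each measured jasmonate synthesis gene (rows) from its own mean over the 6 arrays (columns, 35S::GRF5 left of WT), in log2 units, with the mean of the 7 genes in the bottom row. Only LOX2 and LOX4 among the 7 are below 0 in every 35S::GRF5 array and above 0 in every WT array, and the mean of the members is lowest, at -0.26, in 35S::GRF5 replicate 1.

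Pairs of members were also set against each other by Pearson's r over the 6 arrays, as a description only, since the arrays fall into 2 groups and share their normalisation. AOC4 and OPR3 were most alike, with r of 0.88, and r was 0.89 for their deviations from group means, in which the low 35S::GRF5 replicate 1 takes part. LOX4 and AOS had r of 0.88, and 0.60 for the deviations. LOX2 was most like LOX4, with r of 0.80, but with r of 0.24 for the deviations. The likeness of LOX2 and LOX4 thus lay mostly in the difference between the groups, and that of AOC4 and OPR3 within the groups. LOX3 had no member with r above 0.38, its value with AOC3, and its lowest was -0.51 with LOX2.

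Among the other 20770 loci, the 5 whose values over the 6 arrays were most like the mean of the members were AT1G36510 (r = 0.999), AT3G12955 (0.995), GASA5 (0.995), the zinc transporter gene ZAT (0.991) and the metal transporter gene NRAMP1 (0.991). All 5 had their lowest value in 35S::GRF5 replicate 1 and their highest in WT replicate 3. NRAMP1, for example, read 6.82, 7.67 and 7.41 in 35S::GRF5 and 7.78, 7.67 and 7.94 in WT. These r rest on 6 arrays and are a description only.

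The rest of the jasmonate pathway was followed through 5 lists with 48 measured genes in all. By the limma test over all loci 1 of these 48 was lower in 35S::GRF5 (0.486% of all loci) and 0 were higher (0.284%). An unadjusted p under 0.05 was found for 9 of the 48, against 15.5% of all loci. The median difference of the 48 was -0.02, against 0.02 over all loci.

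Among 7 genes for linolenate supply and other lipoxygenase products, 0 passed, against 0.77% of all loci, and 1 had an unadjusted p under 0.05, against 15.5%. That gene, LOX1, a 9-lipoxygenase outside jasmonate synthesis, read 6.95, 6.76 and 6.84 in 35S::GRF5 and 6.63, 6.52 and 6.57 in WT. Its groups did not overlap, with 35S::GRF5 above WT and a difference of 0.28 (0.08 to 0.48, limma adjusted p = 0.18). LOX6, the 13-lipoxygenase of the first jasmonate made on wounding in distant leaves, differed by -0.21 (-0.45 to 0.03). Without 35S::GRF5 replicate 2 LOX6 differed by -0.13. HPL1, the gene of hydroperoxide lyase, a branch enzyme that uses the same lipoxygenase products as AOS, differed by -0.28 (-0.59 to 0.03). DAD1, a lipase that frees linolenic acid in stamens, differed by -0.12, or by -0.014 without WT replicate 3.

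Of 7 genes of the peroxisomal steps 0 passed (0.77% of all loci did) and 2 had an unadjusted p under 0.05 (15.5% of all loci). PED1, the thiolase of β-oxidation, read 10.65, 10.82 and 10.99 in 35S::GRF5 and 11.09, 11.14 and 11.08 in WT, without overlap and with a difference of -0.28 (limma adjusted p = 0.227). The acyl-CoA oxidase gene ACX5 differed the other way, by 0.20 (limma adjusted p = 0.314), again without overlap. PXA1, the transporter that brings the substrate into the peroxisome, differed by 0.22 and MFP2, a multifunctional protein of β-oxidation, by -0.13; with 35S::GRF5 replicate 2 left out MFP2 differed by -0.069. The list had a median difference of 0.08, or of 0.025 without 35S::GRF5 replicate 3.

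Of 7 genes of jasmonate conjugation and turnover 0 passed (0.77% of all loci did) and 2 had an unadjusted p under 0.05 (15.5% of all loci). CYP94B1, a hydroxylase that inactivates jasmonoyl-isoleucine, read 4.11, 4.23 and 4.002 in 35S::GRF5 and 4.41, 4.33 and 4.52 in WT. The groups did not overlap, and the difference was -0.31 (limma adjusted p = 0.172). ST2A, which sulphates hydroxyjasmonate, differed by -0.25 and JMT, which makes methyl jasmonate, by -0.15, both without overlap; JMT differed by -0.092 without WT replicate 3. Signals of these 3 genes were low, with 22.7% of loci below CYP94B1, 21.1% below ST2A and 13.3% below JMT, so the part of background in them is unknown. CYP94C1, which oxidises hydroxylated jasmonoyl-isoleucine further, differed by 0.11, or by 0.016 without 35S::GRF5 replicate 1. JAR1, the conjugating enzyme, read 8.93, 8.58 and 9.05 in 35S::GRF5 and 8.94, 8.87 and 8.82 in WT, with overlapping groups. JAR1 lies outside the rule for naming genes and is given for its place in the route. JOX2, JOX3 and JOX4, also listed for turnover, were left out of these counts because the gene annotation does not carry these names. JOX2 read 4.58, 4.57 and 4.51 in 35S::GRF5 and 4.86, 4.70 and 5.08 in WT, without overlap (limma adjusted p = 0.193). The groups of JOX3 and JOX4 overlapped.

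Of 17 genes of perception and signalling 0 passed (0.77% of all loci did) and 1 had an unadjusted p under 0.05 (15.5% of all loci). That gene, the repressor gene JAZ9, read 6.86, 6.82 and 6.91 in 35S::GRF5 and 7.14, 7.30 and 7.72 in WT. The groups did not overlap, with WT replicate 3 the highest array, and the difference was -0.53 (limma adjusted p = 0.123). Without WT replicate 3 JAZ9 differed by -0.36. JAZ3 differed by -0.18, or by -0.11 without 35S::GRF5 replicate 2. MYC4, a transcription factor of the response, and TPL, the corepressor recruited by JAZ proteins, differed by 0.26 and 0.23; without 35S::GRF5 replicate 1 MYC4 differed by 0.42, and without WT replicate 3 TPL differed by 0.15. The limma adjusted p of these 3 genes were 0.408 to 0.458, and over the list the median difference was -0.01.

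Of 10 jasmonate output genes 1 fell, against 0.486% of all loci, 0 rose, against 0.284%, and 3 had an unadjusted p under 0.05, against 15.5%. VSP1 and VSP2 were also listed as output genes but had no row, so they are not covered. CORI3, which encodes a cystine lyase induced by coronatine, a bacterial mimic of jasmonoyl-isoleucine, read 9.35, 9.59 and 9.81 in 35S::GRF5 and 10.36, 10.57 and 10.31 in WT. The groups did not overlap, and CORI3 fell by 0.83 log2 units (95% interval -1.11 to -0.54, limma adjusted p = 0.0244), to a level 1.77-fold lower in 35S::GRF5. CORI3 kept its call without 35S::GRF5 replicates 1 (0.0356) or 3 (0.035), but had a limma adjusted p of 0.0767 without 35S::GRF5 replicate 2 and of 0.118, 0.0749 and 0.0624 without WT replicates 1, 2 and 3.

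The other output genes of the naming rule did not pass. PDF1.2, a plant defensin gene that responds to jasmonate with ethylene, read 5.15, 5.07 and 5.15 in 35S::GRF5 and 5.98, 5.41 and 5.68 in WT, a difference of -0.57 without overlap (limma adjusted p = 0.0914). CLH1, a chlorophyllase gene induced by coronatine, differed by -0.24 without overlap (limma adjusted p = 0.226), and ORA59, an ERF regulator of PDF1.2, by -0.31 with overlap (limma adjusted p = 0.391), or by -0.49 without 35S::GRF5 replicate 1. The median difference of the list was -0.16, with 4 of the 10 genes at a positive difference, and -0.09 without WT replicate 3. Over its genes above the 25th percentile of mean level the median was -0.44. Those genes were CORI3, PDF1.2, CLH1 and ORA59, which are also the ones named here for the smallest p of the list.

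**Figure D4:**
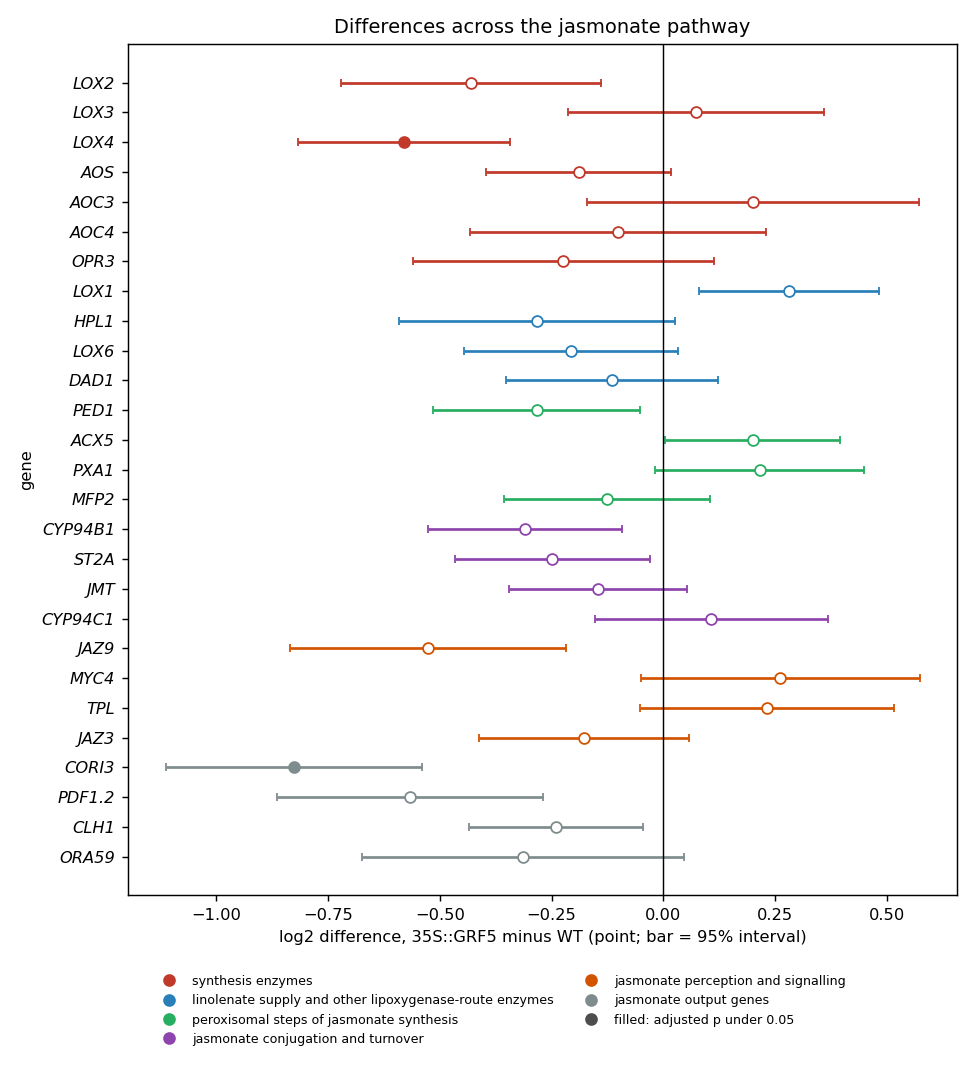
Log2 difference, 35S::GRF5 minus WT (horizontal axis), of the 7 synthesis genes and of 20 named genes of the 5 pathway lists (rows, coloured by list); bars are 95% intervals from limma and filled points have an adjusted p under 0.05. The filled points are LOX4 at -0.58 and CORI3 at -0.83.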

How the data were processed

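ATH1 arrays of 3 35S::GRF5 and 3 WT samples were used. The deposited table holds log2 values from RMA, run by the authors per the submitters' processing notes, without a stated version. RMA corrects background, equalises the arrays' distributions and summarises probes, but the array medians of the deposited values still differed slightly. They were 6.411 to 6.430 in 35S::GRF5 and 6.380 to 6.386 in WT. Each row is a locus; how probes were assigned to loci is not stated there. Names came from a TAIR10.1 gene table (20508 of 20777 loci matched). Precision is set by the 6 arrays, with a median 95% interval of 0.23 log2 units either way.

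Groups were compared by a two-sided limma test (version 3.58.1 under R 4.3.3; lmFit, then eBayes; no filter on low values), with Benjamini-Hochberg adjustment over all loci; the scripts were tested on simulated data. Alternatives were a replicate block, a filter at the 25th percentile, median centring, quantile normalization, trend with robust estimation, ordinary variance, array weights and leaving out each array. The members, lists, tests and naming rule were chosen with earlier results of these data known. The naming rule took every member and, from each pathway list, genes that passed and otherwise up to 4 with the smallest p, plus the 5 loci most like the member mean. Of 98 list entries, 3 were left out because the gene table does not carry the listed name, 14 had no row and 81 were used. Sequences of promoters and proteins were not used here. If the repeats were not separately grown, p-values do not measure the spread between separately grown sets of seedlings.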

Additional observations from a re-analysis of the deposited data

How the results depend on the processing

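Of the 2 called genes, LOX4 lost its call in 9 of 13 alternatives and CORI3 in 5 of 13. The other 25 genes named with a difference were not called with all arrays or in any alternative, so that an unchanged call says little about their stability. Over all 27 genes the direction was kept in 344 of 347 recomputed values. The sign reversed for LOX3 without WT replicate 2 (-0.021), for AOC3 without 35S::GRF5 replicate 2 (-0.0010) and for AOC4 without 35S::GRF5 replicate 1 (0.088). Over the fits that leave out 1 array LOX3 reached from -0.021 to 0.187 (without WT replicate 3), AOC3 from -0.0010 to 0.305 (without 35S::GRF5 replicate 1) and AOC4 from -0.200 (without 35S::GRF5 replicate 3) to 0.088; the cause was not tested. LOX4 had limma adjusted p-values of 0.024 to 0.274 over the alternatives with all arrays. It was lost with quantile normalization (0.061) and ordinary variance (0.274), so that 0 members were called in both, with 3 and 1 at an unadjusted p under 0.05; ordinary variance also called 0 genes of the pathway lists and 0 of all loci, with 2656 of all loci at an unadjusted p under 0.05. With the replicate number as a block LOX4 had a limma adjusted p of 0.0951 and 0 members were called. The count over all loci was then 114 against 160. Same-numbered arrays deviated from their group means with r of -0.05, 0.06 and -0.11, and differently numbered arrays with r of -0.08 to 0.11. With 3 arrays in a group these r cannot show whether the numbers mark a shared batch. Leaving out single arrays gave 17 to 186 calls over all loci, 0 in each fit among the members (2 or 3 at an unadjusted p under 0.05) and 0 to 1 in the pathway lists. The count over all loci was 252 with trend and robust estimation and 294 with array weights. Calls split into 45 higher and 126 lower with centred arrays and into 99 higher and 87 lower without 35S::GRF5 replicate 1, against 59 and 101. AOC3, CYP94B1, ST2A and JMT lay below the 25th percentile and have no value under that filter. Of the output list the filter kept CORI3, PDF1.2, CLH1 and ORA59. The list medians of the pathway moved by more than the spread between arrays in 10 recomputed values; they ranged from -0.11 to 0.045 for linolenate supply, 0.025 to 0.16 for the peroxisomal steps, -0.12 to 0.028 for turnover, -0.052 to 0.016 for signalling and -0.44 to -0.091 for the output genes. Low signal limits LOX4, AOC3, CYP94B1, ST2A and JMT, whose distance from background is unknown. It is unknown too for DAD1, CYP94C1, HPL1 and ORA59, with 27.7%, 29.3%, 31.2% and 34.3% of loci at a lower mean.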
